A study of Mus musculus with 64 samples.

Results

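Cardiomyocytes of infarcted adult hearts were compared with cardiomyocytes of infarcted neonatal hearts. The libraries were chosen by their labels alone: the 4 adult and the 4 neonatal libraries of the infarcted myocyte fraction, 8 of the 64 libraries of the series. All 20637 genes of the deposited table were considered, and the 15461 that passed a filter on low values were tested. The question was how the muscle cells of a heart that scars after injury differ from those of a heart that can still rebuild lost muscle.

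All mice were of the CD1 strain, and the labels name no transgene or mutant allele. The neonatal group, called P1 MI, had a myocardial infarction made on postnatal day 1, and the adult group, called P56 MI, had the left descending coronary artery tied for good at 8 weeks of age. Hearts were taken 3 days after surgery at both ages. Sham-operated libraries of the same ages, 4 each (P1 sham and P56 sham), served as the reference for the age difference without an infarct. Digestion of neonatal ventricles, in pools of 6, was by agitation, while adult hearts of males were perfused with the enzyme on a Langendorff apparatus after the blood had been washed out, and their atria were removed. The dense layer of a Percoll gradient was taken as the myocyte fraction and was not sorted further. The sex of the neonates is not stated, though the Xist levels given below show female cells among them. Age, the way the cells were isolated and sex therefore cannot be told apart. Whether each library was made from animals of its own is not stated, so that a p-value here reflects only how far these libraries scatter, part of which may be technical.

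By way of background, newborn mouse cardiomyocytes still divide and use much glucose, and a heart injured at that age can restore muscle. Within the first weeks of life the cells leave the cell cycle, enlarge, fill with mitochondria that burn fatty acids, build T-tubules and exchange fetal for adult isoforms of troponin, actin and metabolic enzymes. Injured adult cardiomyocytes are known to raise natriuretic peptides, small heat shock proteins and other stress transcripts, and the lost muscle is replaced by collagen.

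Between 23.2 and 27.5 M reads (M stands for 1000000) could be recovered for each of the 8 libraries, and 3 reads, the floor for counting error alone, corresponded to 0.103 to 0.260 CPM. Levels are the deposited read counts scaled to library size (CPM), whose columns summed to 0.877 to 1.04 M at P1 and 1.45 to 2.18 M at P56, because they were divided by effective library sizes. Replicate 3 of P56 MI stood apart. On the first principal component of the 16 cardiomyocyte libraries, which held 77.9% of the variance, it lay at 32.3, the other P56 MI libraries at 87.3 to 101 and the P1 MI libraries below -85. Its level of the nuclear RNA Malat1, picked after the values were seen, was 11222 CPM against 1592 to 2545 in the other P56 MI libraries and 10370 to 12557 at P1 MI, and mitochondrial ribosomal RNA took 12.1% of its reads against 20.3% to 27.3%. Without it the number of members called higher, or called lower, at P56 MI than at P1 MI moved by at most 2 in each of the 43 gene lists used. The female-specific RNA Xist stood at 432, 301, 288 and 419 CPM in P1 MI replicates 1 to 4 and at 0.825, 0.645, 0.949 and 0.694 CPM in P56 MI, while the Y-linked Ddx3y, picked in the same way, was present at both ages (54.5 to 77.9 and 26.7 to 196 CPM). Each P1 MI library thus held transcripts of both sexes.

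The adult and neonatal infarcted cardiomyocytes differed in most of their transcriptome. Genes of contraction, conduction, mitochondria and fuel use were higher in the adult cells, and genes of cell division and of the imprinted growth network were lower. Limma called 11188 of the 15461 genes (72.4%) at an adjusted p under 0.05. Of these, 5831 (37.7% of those tested) were higher at P56 MI and 5357 (34.6%) lower, with a median log2 difference over all genes of 0.03. Differences are given as P56 MI minus P1 MI, ± the standard error, of log2(CPM + 0.5). The added 0.5 makes changes of weakly expressed genes look smaller than they were. The difference exceeded 4-fold for 1175 of the higher and 1013 of the lower genes, and 16-fold for 68 and 85. The 4 adult values did not overlap the 4 neonatal values for 9782 genes (63.3%). At the other end, the 95% interval of the difference lay within a 2-fold change in either direction for 4199 genes (27.2%).

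The split into higher and lower genes depended on the scale of the libraries. When each library was rescaled to the same total without mitochondrial and ribosomal RNA, the differences moved by a median of -0.82 on the log2 scale. Then 2956 genes (19.1%) were called higher and 8786 (56.8%) lower, so that higher genes made up 25.2% of the calls in place of 52.1%. All 5357 lower calls remained lower there, while 2956 of the 5831 higher calls remained higher, 2736 were no longer called and 139 were called lower. Median-of-ratios scaling moved the median by -0.16, with higher genes at 46.2% of the calls, and quantile normalization by -0.05. For each list below, a change of sign of its median under any of these scales is given beside it. Where 5 or fewer members of a list were called in a direction, those reported here are named, a choice made after their values were seen. Without P56 MI replicate 3, 6049 genes (39.1%) were higher and 5844 (37.8%) lower, and 10972 of the 11188 calls kept their direction.

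**Figure D1:**
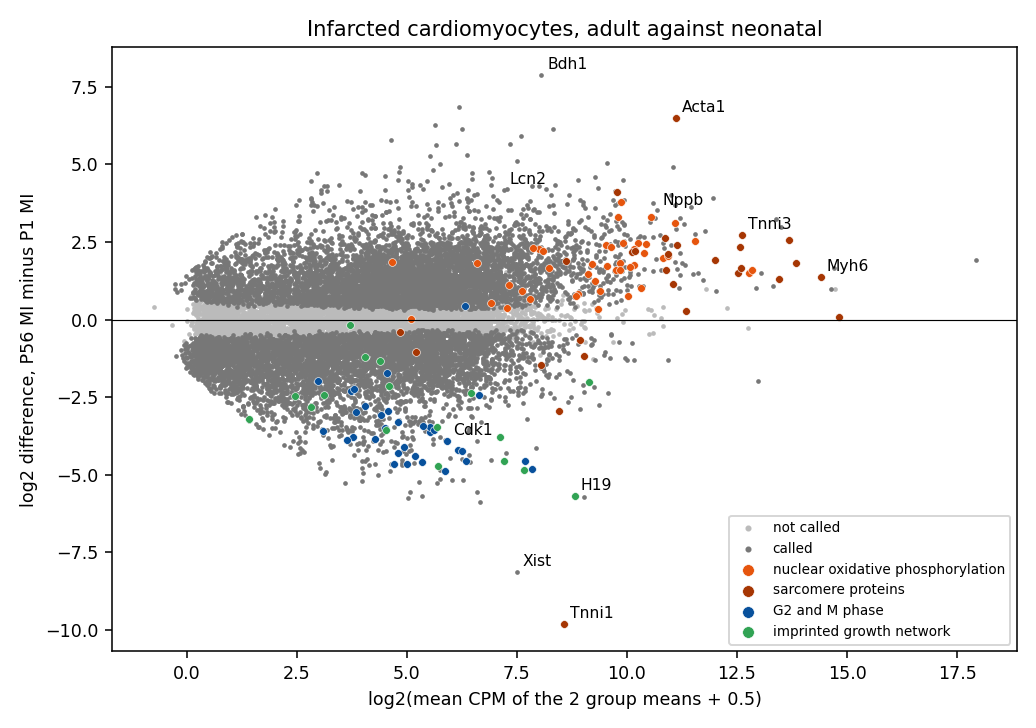
Each point is 1 of the 15461 tested genes, with its mean level (log2 CPM, horizontal) and its log2 difference between P56 MI and P1 MI (vertical; above 0, higher in the adult). Genes of oxidative phosphorylation and the sarcomere lie mostly above 0 at high levels, and genes of the G2 and M phases and the imprinted growth network lie below it, with Bdh1 (7.89) and Tnni1 (-9.80) as the most distant of those labelled.

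The largest increase among the named genes belonged to Bdh1, a mitochondrial dehydrogenase of ketone body oxidation, at 1.46, 1.90, 1.31 and 2.29 CPM in P1 MI and 589.7, 656, 411 and 468 CPM in P56 MI (7.89 ± 0.21, limma adjusted p 2.85e-15). All 4 adult libraries were far above the neonatal ones, and the means differed 306-fold. Acta1, the skeletal alpha-actin of the thin filament (ENSMUSG00000031972, GRCm38 chromosome 8, 123891767 to 123894736), stood at 52.0, 51.0, 56.03 and 32.8 CPM and 3745, 3885, 4046 and 5836 CPM (6.50 ± 0.34, adjusted p 3.05e-11). Rpl3l, the striated muscle form of ribosomal protein L3 (ENSMUSG00000002500, chromosome 17, 24727820 to 24736143), stood at 7.97, 6.30, 9.80 and 8.98 CPM and 705, 870.2, 396 and 567 CPM (6.14 ± 0.22), with the lowest adult value in replicate 3. Scn4b, a sodium channel beta subunit, had 1.12 to 1.67 CPM at P1 MI and 82.1 to 232 CPM at P56 MI (6.14 ± 0.28). The group went on with the carboxypeptidase-like Cpxm2 (6.26 ± 0.34), the ADP-ribosyltransferase Art1 (5.93 ± 0.18), the RNA-binding Csdc2 (5.67 ± 0.31), the muscle ubiquitin ligase Trim54 (5.67 ± 0.24) and the carboxylesterase Ces1d (5.63 ± 0.22). None of these 9 genes overlapped between the ages, which their choice required, and the adjusted p-values lay at or below 5.94e-11.

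The largest decrease was that of Tnni1, the fetal form of troponin I, shared with slow skeletal muscle (ENSMUSG00000026418, chromosome 1, 135779434 to 135810989), at 767, 684, 878 and 696 CPM in P1 MI and 0.66, 0.161, 0.211 and 0.434 CPM in P56 MI (-9.80 ± 0.21, adjusted p 1.87e-16). Every neonatal library lay far above every adult one, replicate 3 included, and all adult values were under 1 CPM. Tmem255a, a membrane protein gene, had 50.2 to 75.6 CPM at P1 MI and 0.322 to 1.64 at P56 MI (-5.73 ± 0.26), and the calpain family member Capn6 had 59.2 to 83.3 and 0.322 to 1.95 CPM (-5.56 ± 0.30). H19, the imprinted noncoding RNA next to Igf2, stood at 918, 1125, 717 and 759.9 CPM against 15.6, 5.88, 22.9 and 33.8 CPM (-5.68 ± 0.35). Xist (-8.12 ± 0.25) is a transcript of female cells, and the adults were males; its antisense gene Tsix shares its reads where strand is not used in counting, which is not given here. The other decreases belonged to transcripts of blood cells: the globins Hbb-bt (-5.86 ± 0.48), Hbb-bs (-5.70 ± 0.66) and Hba-a1 (-5.54 ± 0.64), the red cell anion exchanger Slc4a1 (-5.26 ± 0.31) and the neutrophil calcium-binding S100a8 (-5.67 ± 0.57). The globin genes have near-identical copies among which 50-base reads may have been split.

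Of the 28 sarcomere genes, 19 were higher at P56 MI and 5 lower, with a median of 1.64 against 0.03 over all genes (16 and 8 after rescaling, 11 and 8 after quantile normalization). The lower ones were Tnni1, the atrial light chains Myl4 and Myl7, tropomyosin Tpm2 (-1.06) and the nebulin relative Nebl (-1.16). Adult cells held more of Tnni3, the cardiac troponin I that takes the place of Tnni1 (ENSMUSG00000035458, chromosome 7, 4518305 to 4524229), with 1349.9, 1373, 1886 and 1695 CPM in P1 MI and 13656, 12971, 5394 and 12072 CPM in P56 MI (2.73 ± 0.27, adjusted p 6.67e-08). The groups did not overlap, and replicate 3 was the lowest of the adult libraries. Per base of the gene length that the authors' table gives, Tnni1 made up 8.93% to 11.9% of the sum of both troponin I genes in P1 MI libraries and at most 0.00115% in P56 MI. The Z-disc titin cap Tcap (4.10 ± 0.19) and the Z-disc linker Ldb3 (2.19 ± 0.19) were also higher in all adult libraries. Levels of the giant filament protein gene Ttn scattered more, with 28861, 23165, 26099 and 28424 CPM against 18063, 19435, 45858 and 40327 CPM (0.10 ± 0.38, adjusted p 0.828; -0.75 after rescaling and -1.30 after quantile normalization), and the groups overlapped.

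The myosin and actin genes also differed unequally. The fast alpha heavy chain Myh6 stood at 11862, 10491, 14311 and 11144 CPM in P1 MI and 25066, 36157, 30567 and 33171 CPM in P56 MI (1.38 ± 0.30, adjusted p 0.000414). The slow beta heavy chain Myh7 stood at 2559.7, 2047, 2706 and 1941 CPM against 3406, 2381, 3276 and 2323 CPM (0.29 ± 0.22, adjusted p 0.231), and its groups overlapped; the sign was negative after rescaling and quantile normalization. Myh6 thus made up 82.5% to 85.3% of both per base of length in P1 MI and 88.2% to 93.9% in P56 MI, without overlap, in shares that a scale factor for a library does not alter. The 2 genes have near-identical stretches in which short reads may be split. Actc1, the cardiac actin, was higher in the adult (1.83 ± 0.26), and the share of Acta1 in the per-length sum of both was 0.508% to 1.02% at P1 MI and 10.1% to 22.3% at P56 MI. The ventricular light chain Myl2 was higher (1.31 ± 0.26; -0.27 after quantile normalization, which compresses the most abundant genes), and the atrial light chains Myl7 (-2.96 ± 0.49, adjusted p 2.81e-05) and Myl4 (-1.45 ± 0.51, adjusted p 0.0168) were lower. P56 MI replicate 1 held the most Myl4 of the adult libraries, 382 CPM against 51.0 to 156 in the others, which overlaps the neonatal range of 159.5 to 458. The slow skeletal troponin T gene Tnnt1 had 24.4 to 35.5 and 12.0 to 35.5 CPM (adjusted p 0.166).

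**Figure D2:**
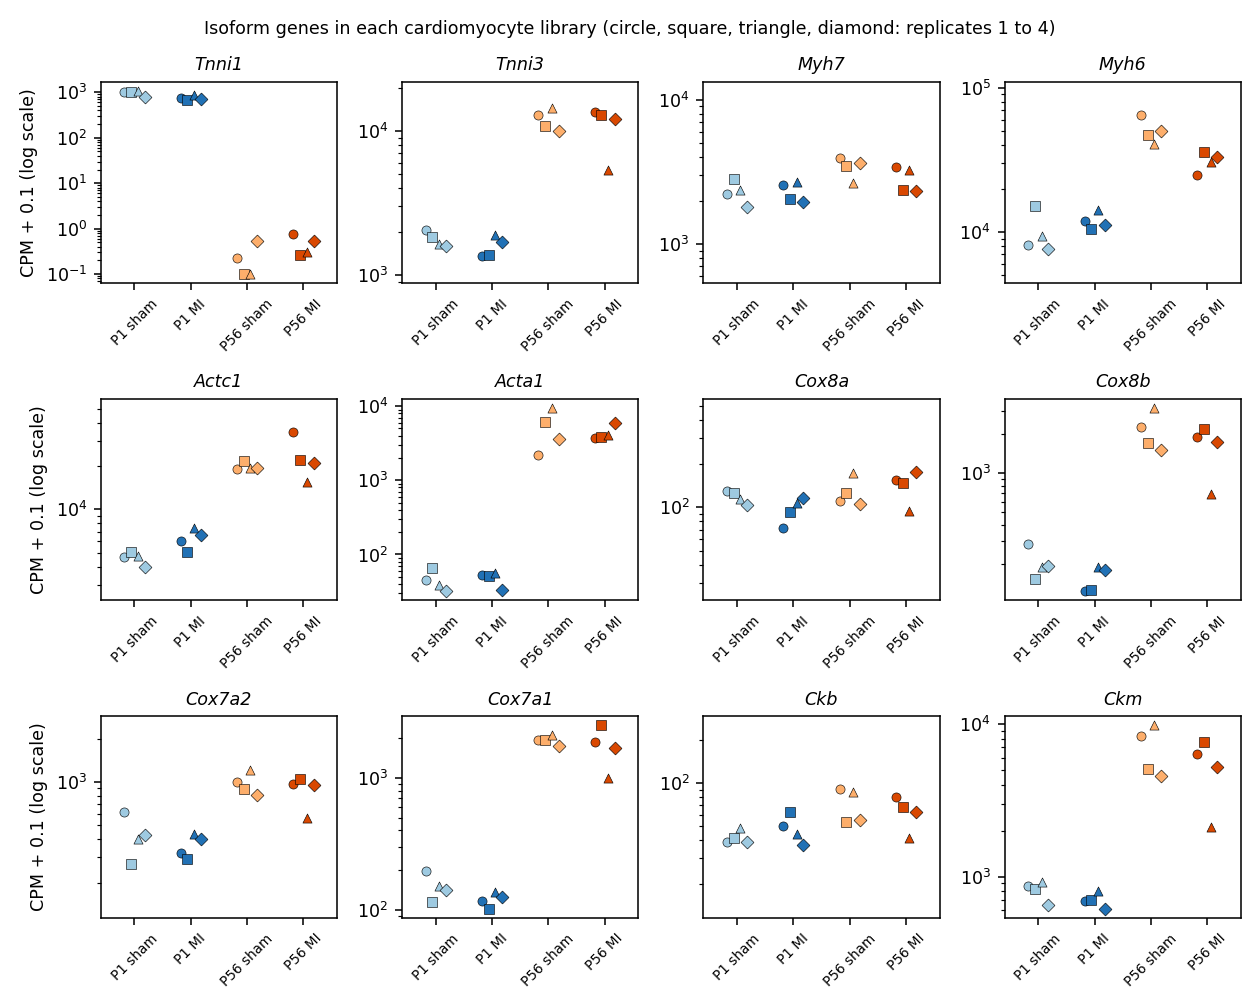
Levels of 12 genes of isoform pairs (CPM + 0.1, log scale) in each of the 16 cardiomyocyte libraries, by group; each point is 1 library and its shape the replicate number. Tnni1 lies at 684 to 878 CPM in the P1 MI libraries and under 1 CPM in the P56 MI libraries, Myh7, Cox8a and Ckb overlap between the ages, and P56 MI replicate 3 (triangle) is the lowest adult infarct library for Tnni3, Cox8b, Cox7a1 and Ckm.

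Among genes that couple excitation to contraction, most ion channel genes were higher in adult cells. The split depended on the scale for the intercalated disc and T-tubules and was mixed for calcium handling. Of 26 potassium and sodium channel genes, 19 were higher and 2 lower (median 1.86). The lower ones were the potassium channel subunit Kcne1 (-3.04) and Scn3b (-1.43). Among the higher were the potassium channel partner Kcnip2 at 22.9 to 32.3 and 216 to 589 CPM (3.56 ± 0.25) and the skeletal sodium channel Scn4a (4.16 ± 0.26). Of 20 genes of the intercalated disc and T-tubules, 11 were higher and 3 lower (median 1.15). After rescaling 10 were higher and 9 lower (median 0.30), and after quantile normalization 9 and 7 (median 0.15). On the deposited scale the lower ones were alpha-catenin Ctnna3 (-0.45), beta-catenin Ctnnb1 (-1.03) and the tight junction scaffold Tjp1 (-1.29). The higher included the intermediate filament Des (3.92 ± 0.28), the junctional scaffold Nrap (2.68 ± 0.21), plakoglobin Jup (2.29 ± 0.21) and junctophilin Jph2 (2.99 ± 0.26), which holds T-tubules to the sarcoplasmic reticulum, at 156, 203, 189 and 108 CPM against 1642, 1418, 825 and 1354 CPM. Calcium handling split into 9 higher and 4 lower of 21 genes (37.7% and 34.6% over all genes tested). Its median of 0.40 changed sign to -0.45 after rescaling and -0.48 after quantile normalization. The lower ones included Sln (-1.52), the atrial inhibitor of the calcium pump, the T-type channel Cacna1h (-2.17) and the ryanodine receptor partner Fkbp1b (-1.50). The calcium sensor S100a1 (3.29 ± 0.24), the histidine-rich Hrc of the sarcoplasmic reticulum (2.45 ± 0.21), the kinase subunit Camk2b (2.05 ± 0.20) and the L-type calcium channel Cacna1c (1.50 ± 0.18) were higher under both scales. After sham surgery the same list had 13 higher and 4 lower genes and a median of 1.19.

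Most nuclear genes of mitochondrial energy supply were higher in the adult infarct libraries. Of 43 nuclear genes of oxidative phosphorylation 40 were higher at P56 MI and 0 lower (median 1.76, range 0.04 to 3.79), and 29 were higher with 2 lower after rescaling. Those not called were Ndufs1 (0.35, -0.50 after rescaling), Cycs (0.04, -0.80 after rescaling) and Cox6a1, and the sign of the first 2 was also negative after quantile normalization. The muscle subunits of cytochrome oxidase led. Cox7a1 stood at 117, 102, 138 and 126 CPM and 1873, 2488, 994 and 1667 CPM (3.79 ± 0.23, adjusted p 1.83e-10), Cox6a2 differed by 3.32 ± 0.25 and Cox8b by 3.29 ± 0.31. Replicate 3 was the lowest adult library for each of them and still above every neonatal one.

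Their ubiquitous partners differed less. Cox7a2 was 1.26 ± 0.25 higher, Cox8a 0.55 ± 0.21 (adjusted p 0.0243, with 71.8 to 116 CPM overlapping 94.2 to 177; -0.30 after rescaling) and Cox6a1 0.37 ± 0.23 (adjusted p 0.162, not called). Per base of length Cox7a1 made up 39.3% to 42.7% of both subunit 7a genes at P1 MI and 78.3% to 83.1% at P56 MI, Cox6a2 59.0% to 65.7% and 91.6% to 94.4%, and Cox8b 67.3% to 72.6% and 91.7% to 95.7%. Each of these shares was free of overlap. The complex III core gene Uqcrc1 (3.12 ± 0.26) and the succinate dehydrogenase membrane anchor Sdhc (2.40 ± 0.20) were higher as well. Of the 7 mitochondrially encoded genes tested 6 were higher (median 1.02), but their median was -0.32 after quantile normalization, with 0 higher there and 1 lower. Of the higher ones mt-Nd2 (1.60 ± 0.26), mt-Nd5 (1.08 ± 0.23), mt-Nd4 (1.08 ± 0.22) and mt-Nd1 (1.02 ± 0.24) encode subunits of complex I.

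Fuel enzymes followed. Of 28 genes of fatty acid oxidation, 24 were higher and 1, the liver-type carnitine transferase Cpt1a (-0.54), lower (median 1.67, 0.82 after rescaling), such as the uptake protein Slc27a1 at 45.9, 52.7, 45.0 and 27.2 CPM against 448, 406, 289.6 and 471 CPM (3.24 ± 0.22), the short-chain dehydrogenase Acads (3.17 ± 0.25), Acacb, which makes the malonyl-CoA that restrains entry of fatty acids into mitochondria (2.87 ± 0.24), and the isomerase Eci1 (2.22 ± 0.18). Genes of glucose use were higher too, 21 of 25, with 1, the brain-type aldolase Aldoc (-2.44), lower (median 1.56). The insulin-regulated transporter Slc2a4 stood at 73.8, 76.4, 77.3 and 59.2 CPM and 1053, 1171, 572 and 1038 CPM (3.69 ± 0.20), and hexokinase 2, Hk2, at 98.9, 110.0, 113 and 93.6 CPM and 606, 693, 716 and 694 CPM (2.70 ± 0.14). Hk2 was close in all 4 adult libraries, replicate 3 being the highest. The muscle phosphofructokinase Pfkm (2.70 ± 0.18) and phosphoglycerate mutase Pgam2 (3.02 ± 0.24) were higher by similar amounts.

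Energy transfer and protection from oxidants were higher as well. Of 13 genes of ketone use and energy transfer 10 were higher and 0 lower (8 and 3 after rescaling, 6 and 2 after quantile normalization). Examples of the 10 were mitochondrial creatine kinase Ckmt2 (4.03 ± 0.20), adenylate kinase Ak1 (2.42 ± 0.20) and the oxygen store myoglobin, Mb, at 2351, 2087, 2852 and 2722 CPM against 23102, 25367, 11892 and 22079.8 CPM (3.00 ± 0.27). The muscle creatine kinase Ckm was higher (2.77 ± 0.33), while the brain form Ckb overlapped between the ages (50.3, 62.6, 43.8 and 37.0 CPM against 79.4, 68.6, 41.7 and 62.5 CPM, adjusted p 0.144). Of 25 antioxidant enzyme genes 18 were higher and 2, Prdx4 (-1.29) and thioredoxin Txn1 (-0.57), lower. Examples of the higher were the quinone reductase Nqo1 (2.94 ± 0.16), the lipid peroxidase Gpx4 (3.07 ± 0.26), peroxiredoxin Prdx5 (2.40 ± 0.21) and catalase Cat (1.68 ± 0.17). Cholesterol synthesis went the other way with 3 of 20 higher, Fdft1 (1.08), Mvk (1.41) and Mvd (0.63, -0.18 after rescaling), and 10 lower. The squalene epoxidase Sqle stood at 21.3, 24.2, 21.9 and 26.5 CPM against 4.54, 0.967, 4.75 and 4.68 CPM (-2.67 ± 0.30), with Hsd17b7 (-2.19 ± 0.21) and the synthase Hmgcs1 (-1.84 ± 0.23) also lower.

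Among 29 cardiac and metabolic transcription factors 20 were higher and 5 lower (median 1.25). The lower were Tbx20 (-1.18), Mef2a (-1.23), Mef2c (-1.41), Nrf1 (-0.52) and Kdm5a (-1.52). The retinoid X receptor Rxrg stood at 6.98, 5.51, 7.58 and 6.24 CPM and 206, 223, 91.3 and 165 CPM (4.53 ± 0.23), the glucocorticoid-responsive Klf15 differed by 3.79 ± 0.21, and the estrogen-related receptors, which drive mitochondrial genes, by 2.95 ± 0.25 (Esrra) and 2.92 ± 0.22 (Esrrb). The homeobox gene Meis1, known as a brake on the cell cycle of postnatal cardiomyocytes, was lower in the adult: 49.2, 45.1, 53.8 and 47.2 CPM against 33.1, 30.9, 35.9 and 25.5 CPM (-0.64 ± 0.17, adjusted p 0.00315), without overlap. Of 16 muscle splicing regulators 4 were higher, namely Rbm38 (2.99 ± 0.24), Rbm24 (1.22 ± 0.18), Rbfox1 (0.82) and the titin splicing factor Rbm20 (0.83, -0.02 after rescaling and also below 0 after quantile normalization), and 8 lower, such as Mbnl3 (-3.63 ± 0.25) and Ptbp2 (-1.59 ± 0.23).

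**Figure D3:**
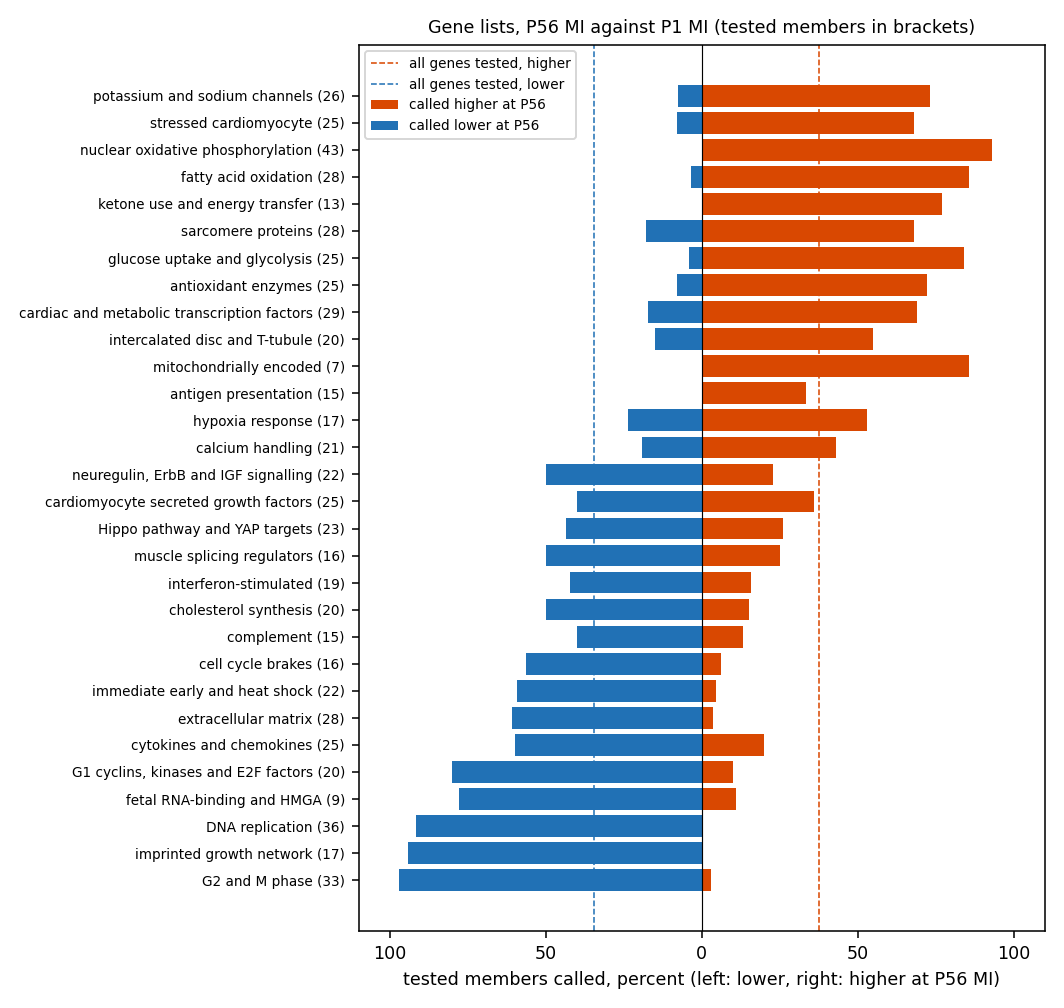
For each of 30 gene lists, the bars give the percentage of tested members called higher (right) or lower (left) at P56 MI than at P1 MI, ordered by the median difference; dashed lines give the same for all 15461 genes tested, 37.7% and 34.6%. Lists of ion channels, energy supply and the sarcomere stand at the top and those of cell division and imprinted genes at the bottom.

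Genes of cell division were far lower in adult infarcted cardiomyocytes. Of 33 genes of the G2 and M phases 32 were lower and 1, the centromere histone Cenpa (0.43, -0.41 after rescaling), higher (median -3.61), and of 36 DNA replication genes 33 were lower and 0 higher (median -1.98). The mitotic kinase Cdk1 (ENSMUSG00000019942, chromosome 10, 69336635 to 69352938) stood at 98.0, 124, 105 and 122 CPM in P1 MI and 7.75, 3.63, 12.6 and 6.68 CPM in P56 MI (-3.90 ± 0.27, adjusted p 8.93e-10). The spindle kinase Aurka stood at 24.4, 31.3, 27.2 and 29.9 CPM and 5.03, 2.42, 3.69 and 3.82 CPM (-2.79 ± 0.19). For both genes each adult library lay well below every neonatal one. The mitotic kinesin Kif20a (-3.46 ± 0.22) and the phosphatase Cdc25c (-3.57 ± 0.25) were lower as well, as were the ribonucleotide reductase subunits Rrm1 (-2.81 ± 0.18) and Rrm2 (-3.59 ± 0.24), the primase Prim1 (-3.17 ± 0.21) and the helicase subunit Mcm7 (-2.08 ± 0.15).

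The promoters of these lists share letters that cell cycle regulators are known to bind. The 3 shown, of Cdk1, Aurka and Mcm7 described above, were chosen among called genes whose windows hold such letters. Each window (RefSeq, GRCm38.p6) runs from 250 bases before to 50 bases after the start of transcription, on the strand of the gene, which is the minus strand for all 3. In the first 2 the capitals mark TTTGAA, the core of the CHR element of late cell cycle genes, and CCAAT or its complement ATTGG, the box bound by NF-Y. In the Mcm7 window they mark letters of the E2F site.
Cdk1 (chr10:69352863-69353162): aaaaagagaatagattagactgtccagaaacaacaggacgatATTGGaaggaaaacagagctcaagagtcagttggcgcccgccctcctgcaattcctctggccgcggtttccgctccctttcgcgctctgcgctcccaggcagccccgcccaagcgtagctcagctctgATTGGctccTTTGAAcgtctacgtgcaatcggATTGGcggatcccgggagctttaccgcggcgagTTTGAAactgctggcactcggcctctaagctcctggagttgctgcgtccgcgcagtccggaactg
Aurka (chr2:172370521-172370820): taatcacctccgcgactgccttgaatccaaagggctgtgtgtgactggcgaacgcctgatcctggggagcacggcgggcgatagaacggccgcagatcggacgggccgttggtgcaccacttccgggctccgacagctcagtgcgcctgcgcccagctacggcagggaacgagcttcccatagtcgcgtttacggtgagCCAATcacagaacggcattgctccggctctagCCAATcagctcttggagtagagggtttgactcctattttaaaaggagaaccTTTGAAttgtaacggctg
Mcm7 (chr5:138171834-138172133): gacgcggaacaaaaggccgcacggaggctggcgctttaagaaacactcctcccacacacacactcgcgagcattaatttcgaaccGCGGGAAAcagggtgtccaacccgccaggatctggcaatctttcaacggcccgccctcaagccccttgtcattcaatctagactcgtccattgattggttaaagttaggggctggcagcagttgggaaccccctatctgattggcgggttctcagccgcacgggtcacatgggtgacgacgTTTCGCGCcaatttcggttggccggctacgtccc

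Windows of 27025 genes were searched on both strands, taking the first listed window of a gene. TTTGAA or TTCGAA occurred in 20 of the 26 G2 and M phase genes with a window (76.9%), in 13.5% of the windows of the 10559 tested genes that had one and in 19.4% of all windows. CCAAT occurred in 22 of those 26 (84.6%), against 38.1% of tested genes, and both together in 19 (73.1% against 5.64%). In the 30 DNA replication genes with a window, CCAAT occurred in 20 (66.7%) and TTTGAA or TTCGAA in 6 (20%). The E2F letters, any of TTTGGCGC, TTTCCCGC, TTTCGCGC and TTTGCCGC, were found in 11 of 30 DNA replication genes (36.7%), in 3.96% of tested genes and in 1 of the 26 G2 and M phase genes. On the strand of the gene alone the figures were 18 of 26 for TTTGAA or TTCGAA and 6 of 30 for the E2F letters, against 8.09% and 2.09% of tested genes. TNAAGGTCA, the letters of the estrogen-related receptors, was in 2 of 31 oxidative phosphorylation windows and in 0 of 24 for fatty acid oxidation, against 0.691% of tested genes. GGAATG, the core of the muscle CAT element, was in 11 of 25 sarcomere gene windows (44%), against 12.3% of tested genes. A match describes letters in a window of 300 bases and is no evidence of binding.

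The Acta1 window was chosen by the smallest limma p among called sarcomere genes whose window holds GGAATG. It holds these letters as their complement, in capitals.
Acta1 (chr8:123894726-123895025, minus strand): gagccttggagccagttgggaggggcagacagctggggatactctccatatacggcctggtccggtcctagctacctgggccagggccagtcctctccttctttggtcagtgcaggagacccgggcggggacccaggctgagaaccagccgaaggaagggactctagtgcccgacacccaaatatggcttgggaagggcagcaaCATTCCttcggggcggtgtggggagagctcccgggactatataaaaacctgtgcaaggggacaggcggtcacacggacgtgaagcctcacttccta

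Most regulators of entry into the cycle were lower. Of 20 G1 cyclins, kinases and E2F factors 16 were lower and 2, the repressors E2f4 (1.25) and E2f6 (1.34), higher. Cyclin D2, Ccnd2, stood at 189.9, 203, 186 and 193 CPM and 47.8, 63.4, 72.9 and 49.5 CPM (-1.74 ± 0.17) and cyclin D1, Ccnd1, at 85.1, 104, 98.9 and 97.3 CPM and 45.5, 41.4, 54.4 and 54.2 CPM (-0.98 ± 0.23, adjusted p 0.00105). Both were free of overlap. Cdk2 (-1.66 ± 0.15), the S phase cyclin Ccne2 (-3.15 ± 0.32) and E2f2 (-2.41 ± 0.25) were lower too. Of genes that restrain the cycle 9 of 16 were lower too and 1, the kinase inhibitor Cdkn2b (0.91), higher, with the pocket protein Rbl1 (-3.20 ± 0.28), Btg1 (-1.62 ± 0.17) and the kinase inhibitors Cdkn2c (-1.43 ± 0.16) and Cdkn2d (-0.83 ± 0.14) among the lower. The p21 gene Cdkn1a stood at 33.2, 33.8, 22.5 and 28.9 CPM against 42.3, 22.2, 14.9 and 46.1 CPM (-0.04 ± 0.34, adjusted p 0.919), with overlap.

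Other cells of the heart hold these transcripts as well, and bulk libraries cannot tell fewer cells of a type from less RNA per cell. The summed level of the 33 G2 and M phase genes was 2648, 3163, 2435 and 3032 CPM in P1 MI replicates 1 to 4 and 267, 202, 521 and 238 CPM in P56 MI. Replicate 3 held the highest adult level, still far below every neonatal one, and without it 32 members were lower and 1 higher. In populations sorted from infarcted adult hearts the median sums were 1747 CPM for fibroblasts, 1481 for leukocytes and 638 for endothelial cells, all above the myocyte fraction. In infarcted neonatal hearts they were 2155, 1608 and 2647 CPM, beside 2840.3 in the myocyte fraction. The part of admixed cells in the adult values was not tested.

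Growth signals of the fetal and newborn heart were lower. All but 1 of 17 genes of the imprinted growth network were lower at P56 MI (16, with 0 higher; median -2.82). The insulin-like growth factor Igf2 stood at 443, 504, 338 and 291 CPM and 10.6, 13.2, 14.6 and 14.1 CPM (-4.83 ± 0.21, adjusted p 3.32e-12), and the adult libraries, replicate 3 included, lay within a narrow range. Plagl1, a factor that acts on this network (-4.72 ± 0.23), Mest (-4.56 ± 0.22) and Peg3 (-3.77 ± 0.19) followed. Median sums of the list were 3239 CPM in the P1 MI myocyte fraction. Sorted P1 MI endothelial cells held 9035 CPM, fibroblasts 5368 and leukocytes 1106. At P56 MI they were 368 CPM in the myocyte fraction, 1138 in endothelial cells, 1106 in fibroblasts and 133 in leukocytes. The part of admixed cells was not tested. Of 9 tested fetal RNA-binding and HMGA genes 7 were lower and 1, Hmga1 (2.02), higher. Igf2bp1, which binds Igf2 RNA, stood at 8.54, 9.06, 8.53 and 6.69 CPM in P1 MI and was listed at 0 in 3 P56 MI libraries and at 0.105 CPM, under the floor, in replicate 3. Igf2bp3 (-4.07 ± 0.27), the chromatin protein Hmgb2 (-3.73 ± 0.32) and Lin28b (-2.08 ± 0.24), which keeps let-7 from being processed, were lower too.

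The neuregulin, ErbB and IGF signalling list was mixed, with 5 of 22 higher and 11 lower (37.7% and 34.6% over all genes tested). The neuregulin receptor Erbb4 was lower, 53.7, 59.5, 56.7 and 52.4 CPM against 12.9, 17.3, 33.2 and 20.6 CPM (-1.47 ± 0.24, adjusted p 2.44e-05), without overlap and with replicate 3 the closest to the neonatal range. Its partner Erbb2 was not called, at 31.6, 33.4, 30.1 and 22.3 CPM against 33.2, 22.5, 19.8 and 35.0 CPM (-0.11 ± 0.21, adjusted p 0.65). The ligand Igf1 was lower (-3.76 ± 0.31), and the receptors Erbb3 (1.20) and Insr (0.72, -0.13 after rescaling and also below 0 after quantile normalization), the kinases Akt1 (1.06) and Akt2 (2.07 ± 0.23) and the EGF-like ligand Hbegf were higher. Hbegf stood at 35.0, 38.0, 27.6 and 30.5 CPM and 161, 67.9, 125 and 168 CPM (1.90 ± 0.23).

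In the Hippo pathway, which limits heart growth by holding back the coactivator YAP, 10 of 23 genes were lower and 6 higher. Over all genes tested 34.6% were lower and 37.7% higher. The DNA-binding partner Tead2 (-2.26 ± 0.23), the kinase Stk3 (-2.37 ± 0.26) and the pathway member Mob1a (-1.88 ± 0.31) were lower. The matricellular YAP target Ctgf was higher, at 156, 143, 130.5 and 102 CPM against 918, 419, 352 and 562 CPM (2.00 ± 0.26, adjusted p 2.06e-06), with no overlap and a spread of the adult libraries of over 500 CPM.

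Stress genes of the injured cardiomyocyte were higher in the adult infarct. Of 25 such genes 17 were higher and 2, the membrane repair gene Myof (-1.48) and the alarmin Il33 (-1.37), lower (median 1.86), against 11 and 8 for the age difference after sham (median 0.58). The natriuretic peptide Nppb stood at 193, 195, 217 and 212 CPM in P1 MI and 6085, 1352, 950.2 and 3886 CPM in P56 MI (3.52 ± 0.49, adjusted p 3.74e-06), without overlap. Nppa stood at 359, 545, 434 and 296 CPM and 2968, 474, 1345 and 1536 CPM (1.71 ± 0.46, adjusted p 0.00269), and its ranges overlapped through P56 MI replicate 2. The spread among adult infarct libraries was wide: the summed level of the list was 32945, 15099.7, 17668 and 25555 CPM in replicates 1 to 4, against 4034 to 4266 in P1 MI and 8729.9 to 12213 in P56 sham. The small heat shock proteins Cryab (3.77 ± 0.23) and Hspb7 (3.62 ± 0.25), metallothionein Mt1 (2.93 ± 0.25) and the actin crosslinker Flnc (2.67 ± 0.23) were higher in every adult infarct library. With all libraries, neither these genes nor Nppa and Nppb were called in the test of infarct against sham age differences, given below.

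Factors that cardiomyocytes can secrete went both ways, with 9 of 25 higher and 10 lower, shares near the 37.7% and 34.6% of all genes tested. The extracellular chaperone Clu stood at 300.2, 218, 194 and 144 CPM and 1846, 1560.4, 1395 and 1568 CPM (2.94 ± 0.20), and Vegfb (3.53 ± 0.28), Edn3 (3.69 ± 0.29) and Fgf16 (2.05 ± 0.19) were higher too. Immediate early and heat shock genes were lower, 13 of 22 with 1, Jund (1.36), higher. The early growth response gene Egr1 stood at 138, 182, 153 and 110.0 CPM and 29.6, 16.4, 25.3 and 25.2 CPM (-2.58 ± 0.27) and Fosb at 224, 334, 215 and 139.7 CPM and 28.1, 2.66, 3.69 and 20.5 CPM (-4.53 ± 0.53). These genes are known to respond to cell handling as well, and the ages were digested differently, so handling and age cannot be told apart. Of 17 hypoxia response genes 9 were higher and 4, Hif1a (-1.21), Bnip3l (-1.16), Ero1l (-0.60) and Kdm3a (-0.78), lower, with a median of 0.41 that became -0.43 after rescaling. Over all genes tested 37.7% were higher and 34.6% lower. The oxygen-sensing hydroxylases Egln1 (2.90 ± 0.22) and Egln3 (2.71 ± 0.22), the collagen hydroxylase P4ha2 (2.13 ± 0.15) and the mitophagy receptor Bnip3 (2.12 ± 0.20) were higher under both scales.

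Matrix and cytokine genes were mostly lower in the adult myocyte fraction. Of 28 extracellular matrix genes 17 were lower and 1, the collagen Col8a1 (1.51), higher (median -1.13). Fibrillin 2, Fbn2 (-4.58 ± 0.24), elastin, Eln (-4.12 ± 0.33), the laminin chain Lamb1 (-1.60 ± 0.16) and Col14a1 (-2.53 ± 0.31) had the smallest adjusted p. Eln stood at 490.4, 728, 338 and 287 CPM against 23.4, 24.8, 20.4 and 29.2 CPM, with all adult libraries close together. Of 25 cytokine and chemokine genes 15 were lower and 5 higher. The neutrophil attractant Cxcl1 stood at 94.9, 144, 70.9 and 104 CPM and 3.30, 2.10, 3.80 and 3.12 CPM (-4.84 ± 0.32), Il6 differed by -4.35 ± 0.33 and Cxcl2 by -3.58 ± 0.33, while the higher ones were the membrane-bound chemokine Cx3cl1 (2.96 ± 0.24), Ccl8 (2.50), Csf1 (1.32), Cxcl12 (1.23) and Ccl12 (1.13). Interferon-stimulated genes had 8 of 19 lower and 3 higher, beside 34.6% and 37.7% of all genes tested. The higher ones were Irf7 (0.85), Oas1a (0.85) and Usp18 (0.55, -0.16 after rescaling). Among the lower, Ifit2 stood at 35.0, 32.0, 41.8 and 40.5 CPM and 4.46, 3.87, 24.6 and 4.08 CPM (-2.41 ± 0.41) and Rsad2 at 19.1 to 25.6 and 1.13 to 12.3 CPM (-2.58 ± 0.47), replicate 3 holding the highest adult value of each.

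Antigen presentation genes had 5 of 15 higher and 0 lower (median 0.54, which became -0.21 after rescaling). Over all genes tested 37.7% were higher and 34.6% lower. After rescaling 2 of the list were higher and 2 lower, and after quantile normalization 7 and 1. Those higher on the deposited scale were the proteasome subunit Psmb10 (1.62 ± 0.21), the invariant chain Cd74 (1.09), the peptide transporter Tap2 (1.75 ± 0.26), its partner Tapbp (1.30 ± 0.25) and H2-D1. The class I gene H2-D1 was called higher (0.78 ± 0.27, adjusted p 0.0151) but stood at -0.07 after rescaling. Of 15 complement genes 6 were lower and 2 higher, beside 34.6% and 37.7% of all genes tested. The higher ones were the lysis inhibitor Cd59a (1.76) and factor D, Cfd. Cfd was listed at 0.214, 0.0345, 0 and 0.0449 CPM at P1 MI and 1.73, 3.38, 2.06 and 2.43 CPM at P56 MI. The central component C3 stood at 578, 449, 476 and 702 CPM and 109.8, 111, 67.1 and 92.2 CPM (-2.53 ± 0.29), and C2 (-3.23 ± 0.30) and the inhibitor Cd55 (-2.30 ± 0.24) were lower too.

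The identity of the fraction and its admixture were read from marker lists. All 14 cardiomyocyte markers were tested and 13 were higher at P56 MI (9 after rescaling, and 5 with 1 lower after quantile normalization). Their summed level was 61468 to 78691 CPM at P1 MI and 160239 to 198099 at P56 MI. Both lie far above the medians of the sorted populations of the same hearts, the highest of which was 12029.7 CPM, in P56 MI leukocytes. Of the markers of other cells most were lower in the adult fraction or not called, as were 5357 and 4273 of the 15461 genes tested. After rescaling more were lower, such as 8 of 12 monocyte and macrophage markers, 10 of 12 pan-leukocyte markers and 12 of 14 endothelial markers. Over all genes 56.8% were lower on that scale. Fibroblast markers summed to 3813 to 6991 CPM and 1866 to 3645 CPM (7 of 13 lower and 2, Pi16 (1.11) and Gsn (0.75, -0.10 after rescaling and also below 0 after quantile normalization), higher), which is 7.35% and 4.09% of the median in sorted fibroblasts of the same age. Col3a1 stood at 3796, 3317, 2029 and 2029 CPM and 1229.8, 692, 1589 and 999 CPM (-1.31 ± 0.38) and Col1a2 at 1419, 1469, 649.9 and 601 CPM and 647, 344, 832 and 605 CPM (-0.71 ± 0.42, adjusted p 0.132, with overlap). Pan-leukocyte markers summed to 207 to 398 CPM and 107 to 366 CPM (0 of 12 higher and 4 lower, which were Ptprc, Cd52 (-1.70), Cd53 (-1.29) and Cd48 (-0.94); 7.27% and 4.34% of sorted leukocytes). Their Ptprc stood at 65.9, 50.8, 36.3 and 62.9 CPM and 9.07, 4.75, 33.2 and 9.37 CPM (-2.22 ± 0.43) and Lcp1 at 51.2 to 92.1 and 20.6 to 111 CPM (adjusted p 0.08). P56 MI replicate 3 held the most of both.

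Endothelial markers summed to 2354 to 2544 CPM and 1218 to 1551 CPM (7 of 14 lower, 0 higher), with Kdr (-1.24 ± 0.25) and Pecam1 (-1.31 ± 0.22) lower. Monocyte and macrophage markers overlapped between the ages, with sums of 483 to 869 and 339 to 808 CPM (0 of 12 higher and 2 lower, Cx3cr1 (-1.88) and Ccr2 (-1.11), or 4 without P56 MI replicate 3), where Lyz2 (-0.71 ± 0.41, adjusted p 0.125) and Csf1r (-0.05 ± 0.35, adjusted p 0.897) were not called. All 8 epicardial markers were lower, with Upk3b at 55.2 to 81.1 and 4.51 to 11.5 CPM (-3.25 ± 0.29) and Msln next (-3.14 ± 0.33). All 6 tested erythroid markers were lower, with sums of 902 to 1788 and 14.0 to 46.2 CPM. Of 10 mural markers 4 were lower, Myh11 (-1.58), Tagln (-1.18), Mcam (-1.85) and the pericyte gene Rgs5 at 740.3, 624, 759 and 1074 CPM and 95.5, 230.0, 442 and 109 CPM (-2.12 ± 0.37), and 2 were higher, Cspg4 (0.99) and Des, which is also a cardiomyocyte gene. Of 13 tested atrial and conduction markers 8 were lower, Myl7 among them, and 4 higher, including Nppa, Stard10 (1.22) and the pacemaker channel Hcn4 (1.76).

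Of 10 neutrophil markers tested, 7 were lower and 1, Lcn2, higher, and at P56 MI 3 of the 12 listed were at 0 in every library. The alarmin subunit S100a9 stood at 79.5, 95.8, 53.8 and 168 CPM and 3.22, 0.887, 0.685 and 4.95 CPM (-5.25 ± 0.56). Lcn2, an iron-sequestering protein that other injured cells also make, stood at 10.4, 11.1, 6.71 and 19.4 CPM and 453, 258, 44.1 and 375 CPM (4.18 ± 0.60, adjusted p 6.29e-06), without overlap and lowest in replicate 3. The T and NK cell markers (3 tested, all lower: Lck -1.71 ± 0.26, Trac -0.97 and Cd4 -0.71 ± 0.20) and B cell markers (5 tested, 4 lower, including Ms4a1 -1.97, Cd79b -1.72 ± 0.28 and Ighm -0.92 ± 0.32) were at low levels, with Lck at 0 to 0.369 CPM in the adult. Of 8 Schwann and neuronal markers 5 were lower, including Stmn2 (-0.84), Uchl1 (-0.80) and S100b (-0.75), and 2 higher, Dbh (2.36 ± 0.30) and Gfra3 (1.09), while Cnp was not called (adjusted p 0.164). For every list given above with a count of 0 in a direction for P56 MI against P1 MI, the count was also 0 at an unadjusted p under 0.05 in limma, by edgeR and by DESeq2. Other scales did not keep all of these zeros. After rescaling 3 genes of ketone use and energy transfer, 2 of antigen presentation and 2 of oxidative phosphorylation were lower. After quantile normalization the counts were 2, 1 and 2, with 1 lower mitochondrially encoded gene and 1 lower cardiomyocyte marker. The part of these cells in the differences of other genes was not tested.

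**Figure D4:**
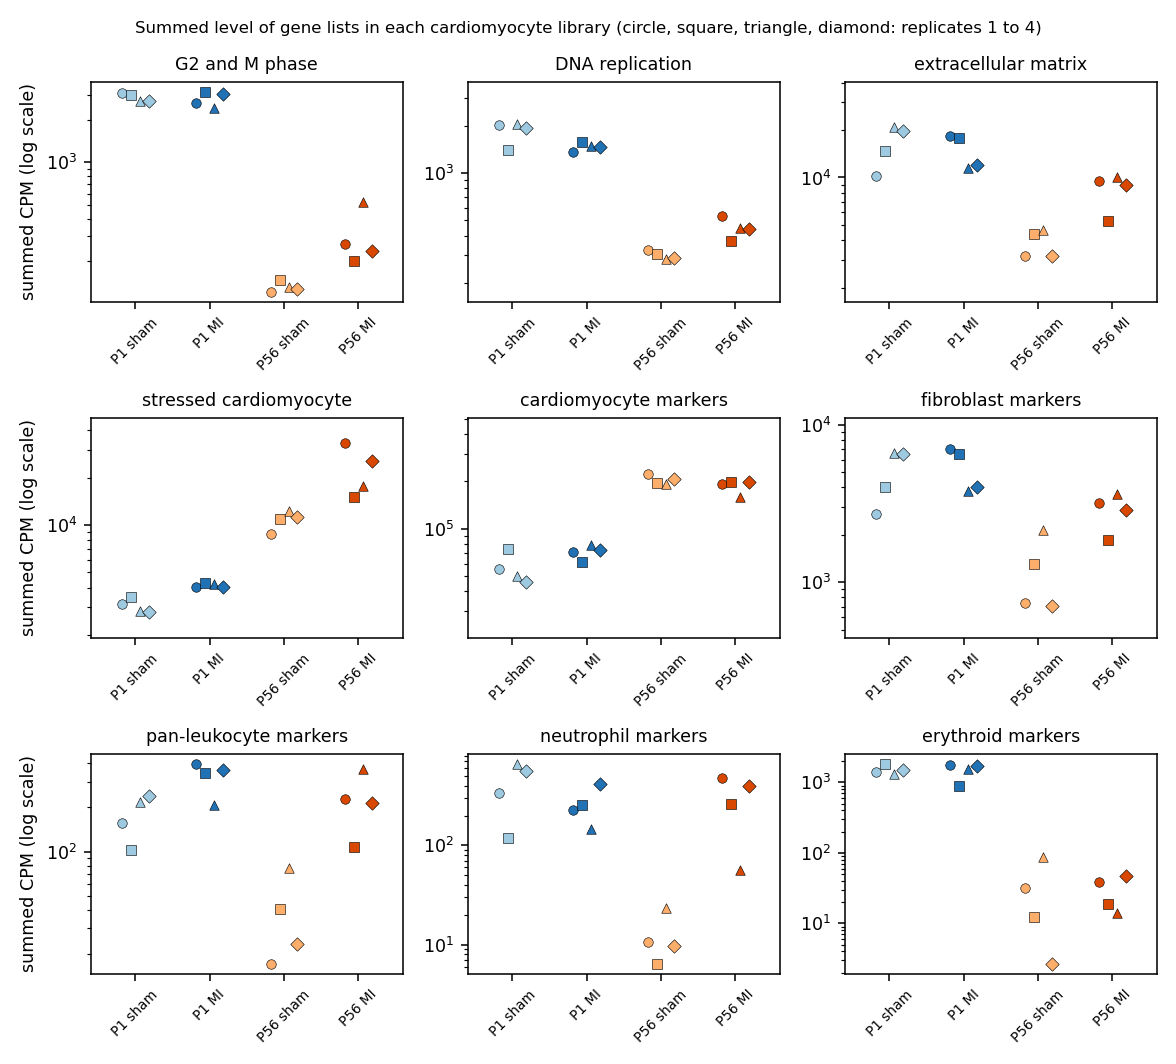
Summed level of 9 gene lists (CPM, log scale) in each of the 16 cardiomyocyte libraries, by group; each point is 1 library and its shape the replicate number. The G2 and M phase sum is 2435 to 3163 CPM at P1 MI and 202 to 521 at P56 MI, with replicate 3 the highest, and the matrix, leukocyte and stress sums of P56 MI lie above those of every P56 sham library.

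Most of the age difference was also seen without an infarct. After sham surgery 5149 genes (33.3%) were higher and 5728 (37.0%) lower at P56. The 9293 genes called in the same direction after both operations, from libraries that the 2 comparisons do not share, were 83.1% of the infarct calls and 85.4% of the sham calls, and 27 genes were called in opposite directions. Both comparisons come from the same fit, with a shared filter and estimate of the spread, so their calls are not independent. The way of isolation differed between the ages in both. Of the 1868 genes called after infarction only, 18 differed between the operations by the test of the difference itself, and so did 59 of the 1557 called after sham only.

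That test, the age difference after infarction minus the age difference after sham, called 270 genes (1.75%): 261 positive (1.69%) and 9 negative. Of the 261, 238 were lower in the adult after sham. After infarction 164 of the 261 were still lower in the adult, 57 were not called and 40 were higher. Cell division and matrix genes were among them: 19 of 33 G2 and M phase genes, 15 of 36 DNA replication genes and 11 of 28 extracellular matrix genes were positive and 0 negative, also at an unadjusted p under 0.05 and by edgeR and DESeq2. Of the stressed cardiomyocyte genes 5 of 25 were positive, namely Timp1, Lcn2, the hyaluronan receptor Cd44 (2.13), Anxa2 (1.82) and Fhl1 (1.84). In limma the lists of oxidative phosphorylation, fatty acid oxidation, sarcomere and calcium handling had 0 members called in either direction with all libraries, but some without P56 MI replicate 3, given below. At an unadjusted p under 0.05 these lists had 2, 4, 5 and 4 members, edgeR called 0 and DESeq2 0, 1, 2 and 1, and a missing call does not show that a difference was absent.

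The count of these calls rested on single libraries. Without P56 MI replicate 3 there were 1258 positive calls (8.14%) and 1053 negative ones among the 15461 genes tested. Then 23 of the G2 and M phase genes, 22 of the DNA replication genes and 18 of the matrix genes were positive, and all 261 remained positive. Of the stressed cardiomyocyte genes 12 of 25 were then positive, Nppb (2.01) among them. Calcium handling had 4 negative members of 21 without that library, triadin Trdn (-1.60), the channel subunit Cacna2d1 (-1.22), Hrc (-0.87) and Asph (-0.72). In fatty acid oxidation 2 of 28, Lpl (-1.08) and Etfa (-1.03), were negative, and in oxidative phosphorylation 1 of 43, Cycs (-1.17). In the sarcomere list of 28, Nebl (-1.72) was negative and Tnni1 (0.91) positive. The shares of fatty acid oxidation, oxidative phosphorylation and sarcomere genes were near or below those of all genes tested. Leaving out P56 MI replicate 2 gave 690 calls in all and leaving out P1 sham replicate 2 gave 422. The total was lower, 126 to 176, without P1 sham replicate 3 (126), P1 MI replicate 4 (143), P1 MI replicate 3 (148), P56 MI replicate 1 (155), P1 sham replicate 4 (157), P56 MI replicate 4 (171) or P56 sham replicate 1 (176). After rescaling 154 were positive and 5 negative, with 13, 14 and 8 positive members in the same lists.

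The largest positive difference was that of Tnc, the matrix glycoprotein tenascin C that borders healing tissue (ENSMUSG00000028364, chromosome 4, 63959785 to 64047015). It stood at 109 ± 50.6 CPM in P1 sham and 1.34 ± 0.444 in P56 sham (SD, n = 4), but at 150.0, 198, 78.3 and 112 CPM in P1 MI and 212, 48.5, 226 and 163 CPM in P56 MI. The infarct groups overlapped (0.14 ± 0.42, adjusted p 0.779), and the difference of the age differences was 5.93 ± 0.59 (adjusted p 9.05e-05). Timp1, an inhibitor of matrix proteases, also stood low in P56 sham, with 0.789 CPM in P56 sham, 31.5, 31.5, 19.5 and 37.7 CPM in P1 MI and 84.7, 21.3, 47.8 and 58.4 CPM in P56 MI (4.11 ± 0.59, adjusted p 0.00221). The acute phase protein Saa3 (4.67 ± 1.07), the collagen Col12a1 (3.79 ± 0.57) and Col3a1 (2.52 ± 0.53, adjusted p 0.0172) were positive, the last 2 staying lower in the adult after infarction. Lcn2 (4.91 ± 0.85, adjusted p 0.00434) stood at 18.4 ± 11.6 CPM in P1 sham and 10.0 ± 5.41 in P56 sham, and was higher in the adult after infarction.

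Among cell cycle genes the linker histone Hist1h1b (3.75 ± 0.61, adjusted p 0.00309), Cdk1 (2.78 ± 0.38, adjusted p 0.0019), Prim1 (1.85 ± 0.30) and Aurka (1.29 ± 0.27) were positive. Cdk1 stood at 148 ± 33.2 CPM in P1 sham and 0.933 ± 0.263 in P56 sham, so that its age difference was -6.68 ± 0.27 after sham and -3.90 ± 0.27 after infarction. Ctgf (1.94 ± 0.37, adjusted p 0.00938) and Hbegf (1.34 ± 0.33, adjusted p 0.0446) were positive as well, at 114 ± 23.9 and 120.0 ± 29.4 CPM for Ctgf and 31.4 ± 5.96 and 46.4 ± 5.38 CPM for Hbegf in P1 and P56 sham. Bdh1 and Tnni1 were not called in this test with all libraries, with Bdh1 at -0.62 ± 0.29 (adjusted p 0.295) and Tnni1 at 0.83 ± 0.30 (adjusted p 0.179).

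The called genes were also placed by the population with the highest mean. They had been called from the same cardiomyocyte libraries that enter this ranking, which favours that fraction for genes called higher there. Shares over all genes tested were not computed, so these counts are no test of where the transcripts came from. Of the 261 positive genes, 24 (9.20%) had their highest mean among the infarcted adult populations in the cardiomyocyte fraction, 104 among fibroblasts, 103 among leukocytes and 30 among endothelial cells. For the 5831 genes higher at P56 MI the cardiomyocyte fraction came first in 4559 (78.2%). For the 5357 genes lower at P56 MI the highest mean among the infarcted neonatal populations lay in the cardiomyocyte fraction for 1030 (19.2%), in endothelial cells for 1763 (32.9%), in fibroblasts for 1478 (27.6%) and in leukocytes for 1086 (20.3%). Tnc, for instance, averaged 3646 CPM in sorted P56 MI fibroblasts, and Lcn2 13.6 CPM in leukocytes against 283 in the cardiomyocyte fraction. Whether markers of those cells moved with these genes was not computed, and only their summed levels are given. The summed level of the fibroblast markers was 702 to 2132 CPM in P56 sham and 1866 to 3645 in P56 MI, that of the pan-leukocyte markers 17.1 to 77.1 and 107 to 366. At P1 the fibroblast markers summed to 2714 to 6650.5 CPM after sham and 3813 to 6991 after infarction, and the pan-leukocyte markers to 102 to 238 and 207 to 398. Their part in the difference was not tested.

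The negative genes included muscle genes. Cmya5, a muscle anchoring protein, stood at 181 ± 58.6 CPM in P1 sham and 2240.1 ± 359 in P56 sham, and at 269.5, 245, 299 and 279 CPM in P1 MI and 592, 1268, 1571 and 851 CPM in P56 MI, so that the adult excess was smaller after infarction (-1.79 ± 0.37, adjusted p 0.0159). The myosin light chain kinase family member Mylk4 (-2.42 ± 0.50), the secreted Lgi1 (-1.94 ± 0.42), the amylase Amy1 (-1.78 ± 0.43), which has close paralogs, and the centrosomal Cep112 (-1.58 ± 0.34) were the other named ones. For Mylk4 the infarct groups overlapped, at 4.38 to 8.47 and 5.81 to 19.9 CPM.

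**Figure D5:**
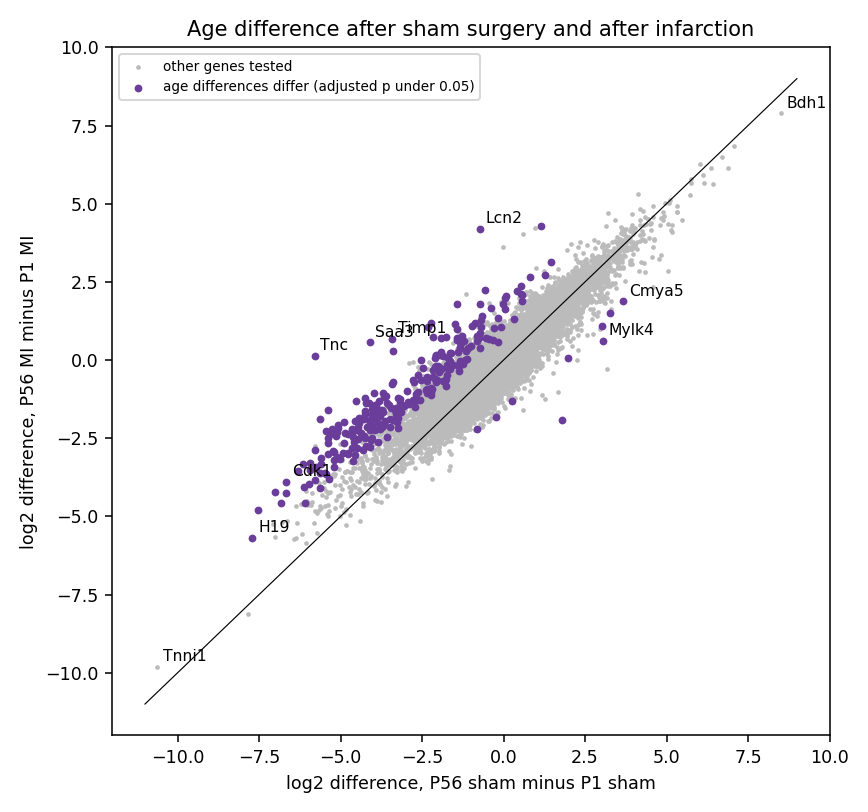
Each point is 1 of the 15461 tested genes, with its log2 difference between the ages after sham surgery (horizontal) and after infarction (vertical); the line marks equal differences, and coloured points are the 270 genes whose age differences differed. Most genes follow the line, and 261 of the coloured points lie above it, Tnc (5.93) and Lcn2 (4.91) the farthest of those labelled.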

How the data were processed

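RNA of 64 libraries of heart cells was depleted of ribosomal RNA and sequenced as stranded 50-base single reads, per the labels' protocols. Per the submitters' processing notes, the tools were STAR, HTSeq, Trimmomatic and edgeR with GRCm38, mm10 and GRCh38 as builds; roles and versions are missing. No source used here says whether counting used strand. The deposited signal is read counts divided by effective library sizes by the authors with edgeR (called CPM here), so column sums vary, and the design's assumption of plain CPM was replaced by the same log-scale test. The gene length of the deposited table was used for shares within pairs of genes. In every library 100% of the values were whole multiples of 1 read within 0.01, which gave the reads used by the count tests. All 20637 genes were named in the table, and 20540 of their positions overlapped the GENCODE M21 gene of the same identifier on GRCm38.

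Genes that reached 1 CPM in 4 or more of the 16 cardiomyocyte libraries were tested with limma 3.58.1 (R 4.3.3) on log2(CPM + 0.5), 4 groups, a variance trend and Benjamini-Hochberg adjustment, with calls at 0.05; both age contrasts and their difference come from this fit. On simulated data with 15461 genes it recovered 84% of 2-fold and 100% of 4-fold changes between P56 MI and P1 MI, and called 12 unchanged genes. The simulation changed 100 genes at each fold and used the same dispersion for every gene. It had no library apart and no shift of scale, unlike these data, so its error counts do not carry over to them. Alternatives were edgeR 4.0.16 and DESeq2 1.42.0 on the recovered reads, other pseudocounts, filters, scalings and variance models, a replicate block and left-out libraries. The pairs of replicates of each group differed by more than sampling noise, and none was identical. Genes were named by a rule: the 10 largest called changes in each direction without overlap and with at least 5 CPM, a set list of isoforms and regulators, up to 4 members of each list with the smallest adjusted p or the 2 most abundant markers, and the 6 largest differences of age differences. The comparison, the gene lists and the rule were chosen with earlier results of these data known. Promoter windows are from RefSeq (GRCm38.p6). Libraries of the sorted cells served only for levels, and the sham libraries for the second contrast; other comparisons of the series were not analysed here. Some members of the lists stay in the counts but are not reported here by name.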

Additional observations from a re-analysis of the deposited data

Results flagged for a closer look

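In 516 groups of 4 values (the genes given above with all libraries and the measures of library make-up, at P1 MI and P56 MI), 35 had 1 library whose gap to the nearest other exceeded Dixon's 95% limit as a share of the group's range. Chance alone flags about 1 in 20 such groups. Replicate 3 of P56 MI was the library apart in 20 of them. It lay above the other 3 for Tjp1 (159 CPM), Mbnl3 (1.11 CPM), Ptbp2 (48.2 CPM), Igf2bp1 (0.105 CPM), Lin28b (0.316 CPM), Mob1a (77.0 CPM), Hif1a (267 CPM), Ifit2 (24.6 CPM), Cd48 (8.44 CPM), Ptprc (33.2 CPM), Ccr2 (27.3 CPM) and Lyz2 (397 CPM). It lay below them for Ldb3 (1417 CPM), S100a1 (668 CPM), Sdhc (737 CPM), Pgam2 (754 CPM), Ak1 (892 CPM) and Rbm38 (128 CPM). Its Malat1 level was 11222 CPM. Its CPM values summed to 1209990 outside mitochondrial and ribosomal RNA.

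In P1 MI replicate 1 the lowest values were apart for Myl7 (224 CPM) and Sln (23.6 CPM). In P1 MI replicate 2 the highest values were apart for Rrm2 (76.0 CPM) and Il6 (37.9 CPM). In P1 MI replicate 3 the highest values were apart for Eci1 (186 CPM). In P1 MI replicate 4 the highest values were apart for Capn6 (83.3 CPM), Txn1 (141 CPM), Stk3 (43.5 CPM) and Pecam1 (504 CPM). Ribosomal RNA genes took 4.10% of the reads of P1 MI replicate 4, apart from the other 3. In P56 MI replicate 1 the highest values were apart for Cdkn2b (3.46 CPM). In P56 MI replicate 2 the lowest values were apart for Sqle (0.967 CPM) and Plagl1 (1.61 CPM). In P56 MI replicate 4 the highest values were apart for Acta1 (5836 CPM) and Scn3b (3.47 CPM).

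For 20 of the genes given above the age difference after infarction exceeded that after sham by limma's test of the difference itself: H19 (2.03), Cdk1 (2.78), Aurka (1.29), Prim1 (1.85), E2f2 (1.88), Mest (1.54), Hbegf (1.34), Ctgf (1.94), Col3a1 (2.52), Col1a2 (2.67), Mcam (1.44), Lcn2 (4.91), Cd44 (2.13), Anxa2 (1.82), Fhl1 (1.84), Tnc (5.93), Timp1 (4.11), Saa3 (4.67), Col12a1 (3.79) and Hist1h1b (3.75), as differences of log2 differences. It fell short of it for Cmya5 (-1.79), Mylk4 (-2.42), Lgi1 (-1.94), Amy1 (-1.78) and Cep112 (-1.58).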

How the results depend on the processing

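The total of 11188 calls between P56 MI and P1 MI ranged from 9114 to 13173 over the other filters, scalings, models and tools and from 10542 to 11893 when 1 library was left out. With a fold of at least 2 as well, 7364 genes were called, 3814 higher and 3550 lower. Rescaled without mitochondrial and ribosomal RNA, 2956 were higher and 8786 lower. The 270 calls of the difference of age differences (261 positive, 9 negative) were less stable: 126 to 2311 without 1 library (positive 122 to 1258, negative 4 to 1053), 3452 (1951, 1501) without replicates 3 of P56 MI and P56 sham, 6019 (3706, 2313) with array weights, 629 (560, 69) by DESeq2, 129 (115, 14) after quantile normalization and 159 (154, 5) after rescaling. The negative calls numbered 14 with a pseudocount of 1 and 16 without a filter or with median-of-ratios scaling. The cause was not tested.

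Signs changed for named genes in P56 MI minus P1 MI after rescaling, to -0.75 for Ttn, -0.56 for Myh7, -0.50 for Ndufs1, -0.80 for Cycs, -0.30 for Cox8a, -0.48 for Cox6a1, -0.48 for Ckb, -0.18 for Mvd, -0.015 for Rbm20, -0.41 for Cenpa, -0.13 for Insr, -0.16 for Usp18, -0.070 for H2-D1, -0.099 for Gsn, -0.44 for Cnp, -0.71 for Tnc, -0.15 for Timp1, -0.27 for Saa3 and -0.17 for Mylk4. After quantile normalization they changed to -1.30 for Ttn, -1.29 for Myh7, -0.27 for Myl2, -0.88 for Ndufs1, -0.15 for Cycs, -0.23 for Cox6a1, -0.33 for mt-Nd5, -0.32 for mt-Nd4, -0.54 for mt-Nd1, -0.13 for Rbm20, -0.051 for Insr, -0.052 for Gsn and -0.44 for Tnc. With median-of-ratios scaling they changed to -0.066 for Ttn, -0.12 for Cycs and -0.026 for Tnc. With array weights they changed to 0.36 for Cdkn1a and 0.067 for Erbb2. Without replicates 3 of P56 MI and P56 sham they changed to -0.13 for Ttn, -0.24 for Cycs, 0.26 for Cdkn1a, 0.032 for Erbb2 and -0.095 for Tnc. When 1 library was left out the difference ranged from -0.13 to 0.31 for Ttn, -0.24 to 0.42 for Cycs, -0.27 to 0.26 for Cdkn1a, -0.24 to 0.032 for Erbb2, -0.15 to 0.13 for Csf1r and -0.095 to 0.64 for Tnc, and none of these genes was called between the ages with all libraries.

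Replicate numbers were not used as pairs in the main test. Same-numbered P1 MI and P56 MI libraries had correlations of their deviations between -0.22 and 0.08. Between P1 sham and P1 MI the own number correlated most for replicates 2 (0.265, highest other 0.098) and 4 (0.28 and 0.152). It did not for replicates 1 (-0.426) and 3 (-0.258), nor for any replicate between P56 sham and P56 MI. Whether the numbers mark shared preparations was not settled. With the number as a replicate block 10879 genes were called between the ages, 5679 higher and 5200 lower, and 170 for the difference (165 positive, 5 negative). Levels below the floor of 0.103 to 0.260 CPM could not be told from 0 at this depth.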
